A study of Mus musculus with 16 samples.

Results

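The retinoblastoma (RB) family of pocket proteins and the E2F transcription factors that they bind were examined in mouse lung tumors. The set is the rows of the count files with the symbols Rb1, Rbl1, Rbl2, E2f1, E2f2, E2f3, E2f4, E2f5, E2f7 and E2f8, and leaves E2f6 out. All 10 were found among the 23284 gene symbols counted, and all 10 passed the filter on low counts that kept 14825 genes. RNA was sequenced from 9 tumors labelled RPMax-/- (Max null) and 7 labelled RPMaxWT (Max wild-type). The mice were of mixed strain, 129/SvJ and C57BL/6. In both groups the alleles were recombined by Ad.CMV.Cre, an adenovirus that drives Cre recombinase from a CMV promoter, given into the trachea. The CMV promoter acts in any cell that the virus enters. The letters RP usually stand for floxed Rb1 and floxed Trp53, used in mice to model small cell lung cancer, but the labels do not spell them out. If so, both groups carry the Rb1 and Trp53 deletions, and the groups differ in Max, the partner that MYC proteins need to bind DNA. The labels give no age, and they do not say whether each tumor came from its own mouse.

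RB1 and its relatives p107 (Rbl1) and p130 (Rbl2) bind E2F proteins and keep the genes for DNA replication and mitosis off in resting cells. Cyclin D and cyclin E kinases phosphorylate the pocket proteins, which release the activators E2F1, E2F2 and E2F3. E2F4 and E2F5 act mostly as repressors with p107 and p130, in a complex (DREAM) built on the MuvB core, and E2F7 and E2F8 repress without a pocket protein. Loss of RB1 together with p53 is the usual genetic state of small cell lung cancer, a neuroendocrine tumor that divides fast, and many E2F genes are themselves targets of E2F.

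Promoters of E2F-regulated genes often hold the E2F site, and the windows of this family that hold a word like it are shown here. They are those of Rbl1, E2f2, E2f3, E2f7 and E2f8, chosen because they hold a match. A RefSeq table (GRCm38.p6) gave 9 windows for 7 of the 10 genes, each 300 bases long, with 250 before and 50 after a start site. Rb1, E2f4 and E2f5 had no entry. Searched on both strands were the word TTCCCGC, the word TTGGCGC, the word TTCGCGC and the word TTGCCGC. They were found in 5 of the 9 windows, each of another gene, and in 9.57% of all 32851 windows of the same length. The 5 windows are written 5′ to 3′ on the gene's strand, with the matching words in capitals.
Rbl1, chr2:157204485-157204784, minus strand: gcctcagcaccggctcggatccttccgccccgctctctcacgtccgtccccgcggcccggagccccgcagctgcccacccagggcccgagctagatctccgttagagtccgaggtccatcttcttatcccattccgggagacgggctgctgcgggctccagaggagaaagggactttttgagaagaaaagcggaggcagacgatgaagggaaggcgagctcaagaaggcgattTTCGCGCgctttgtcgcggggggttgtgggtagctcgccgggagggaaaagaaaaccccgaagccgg
E2f2, chr4:136172024-136172323, plus strand: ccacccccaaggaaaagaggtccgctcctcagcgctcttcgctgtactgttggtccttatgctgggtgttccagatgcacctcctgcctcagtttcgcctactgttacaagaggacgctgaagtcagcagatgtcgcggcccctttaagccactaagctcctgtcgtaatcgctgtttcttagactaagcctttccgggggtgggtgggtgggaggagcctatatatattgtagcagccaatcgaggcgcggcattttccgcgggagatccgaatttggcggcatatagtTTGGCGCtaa
E2f3, chr13:29986014-29986313, minus strand: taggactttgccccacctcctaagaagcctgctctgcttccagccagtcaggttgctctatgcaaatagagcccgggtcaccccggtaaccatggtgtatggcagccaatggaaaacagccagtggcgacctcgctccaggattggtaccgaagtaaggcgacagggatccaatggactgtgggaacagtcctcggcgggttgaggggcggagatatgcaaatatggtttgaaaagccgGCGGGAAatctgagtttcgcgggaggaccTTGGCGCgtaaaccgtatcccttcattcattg
E2f7, chr10:110745189-110745488, plus strand: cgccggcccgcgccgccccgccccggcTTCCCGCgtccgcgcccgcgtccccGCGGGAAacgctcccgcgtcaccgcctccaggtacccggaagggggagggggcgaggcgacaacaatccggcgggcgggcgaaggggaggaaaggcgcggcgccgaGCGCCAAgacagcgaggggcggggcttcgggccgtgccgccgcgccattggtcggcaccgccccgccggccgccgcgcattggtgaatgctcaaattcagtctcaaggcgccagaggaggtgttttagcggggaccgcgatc
E2f8, chr7:48881547-48881846, minus strand: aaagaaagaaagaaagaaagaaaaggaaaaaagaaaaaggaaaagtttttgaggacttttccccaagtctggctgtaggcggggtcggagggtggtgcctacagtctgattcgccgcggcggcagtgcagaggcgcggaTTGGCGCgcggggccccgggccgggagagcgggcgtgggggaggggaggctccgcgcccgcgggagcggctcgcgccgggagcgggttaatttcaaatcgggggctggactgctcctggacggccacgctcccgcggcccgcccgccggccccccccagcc
E2f7, an atypical repressor, had 3 matches, E2f3 had 2 and the other 3 windows had 1 each. The matches lay 17 bases before the start site in Rbl1, 41 after it in E2f2 and 111 before it in E2f8. In E2f3 they lay 11 before and 19 after the start, and in E2f7 they lay 223, 198 and 92 before it. The windows of E2f1 and Rbl2 and a second window each of E2f2 and E2f3 had no match. Of the E2f1 window, 188 of 300 bases lie in E2f1 coding sequence in GENCODE M21, so the window starts inside the gene. The E-box CACGTG, the word that MYC and MAX dimers bind, was in 1 of the 9 windows, the second one of E2f3, against 7.15% of all windows. A match describes the letters and is not a binding site.

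Reads in genes numbered 8.66 to 15.11 M per null tumor and 9.15 to 13.22 M per wild-type tumor. The share of reads aligned to more than 1 place was 10.8% ± 0.82 (SD, n = 9) in the null group and 16.01% ± 3.95 (SD, n = 7) in the wild-type group. The groups did not overlap in this share, with a two-sided exact permutation p of 8.74e-05, the smallest that 11440 splits can give. It was highest in wild-type tumors 2, 4 and 7, at 16.01%, 20.8% and 22.2%. Its part in the results below was not tested beyond the fits given with it. As the groups do not overlap in it, those fits can hardly tell the share from Max status. Max measured 74.4 ± 5.98 CPM (counts per M reads in genes) in null tumors, against 65.8 ± 7.97 CPM in wild-type ones (SD). Trp53 measured 19.7 ± 3.90 CPM in null tumors, against 31.2 ± 15.1 CPM in wild-type ones (SD). In all 9 null tumors it lay below the wild-type median, though the groups overlapped. Its log2 difference in the edgeR test described below was -0.66 ± 0.26 (SE), with an adjusted p of 0.083. A gene count covers all exons, so the counts of Max, Rb1 and Trp53 cannot show whether some exons were deleted. The 7 neuroendocrine markers summed to between 3183 and 6368 CPM in null tumors, against between 3515 and 26217 CPM in wild-type tumors, and none of them was at 0.

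None of the 10 genes passed the test between null and wild-type tumors. The test was edgeR's quasi-likelihood test, with Benjamini-Hochberg adjustment over all 14825 genes and a threshold of 0.05. It called 16% of all genes, 7.4% as higher and 8.64% as lower in null tumors. DESeq2 called 0 of the 10, against 22.5% of all genes, and limma-voom 0, against 16.5%. E2f4 was the 1 gene of the 10 with an unadjusted p under 0.05 in each of the 3 tools, a level that 32.8% of all genes reached in edgeR, 35.2% in DESeq2 and 32.4% in limma-voom. In all 10 genes the CPM of the groups overlapped, as they did in all but 1.56% of the genes tested. Of the 10 log2 differences, null minus wild-type, 5 lay above 0 and 5 below, with a median of -0.06, and the median over all genes was -0.03.

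**Figure D1:**
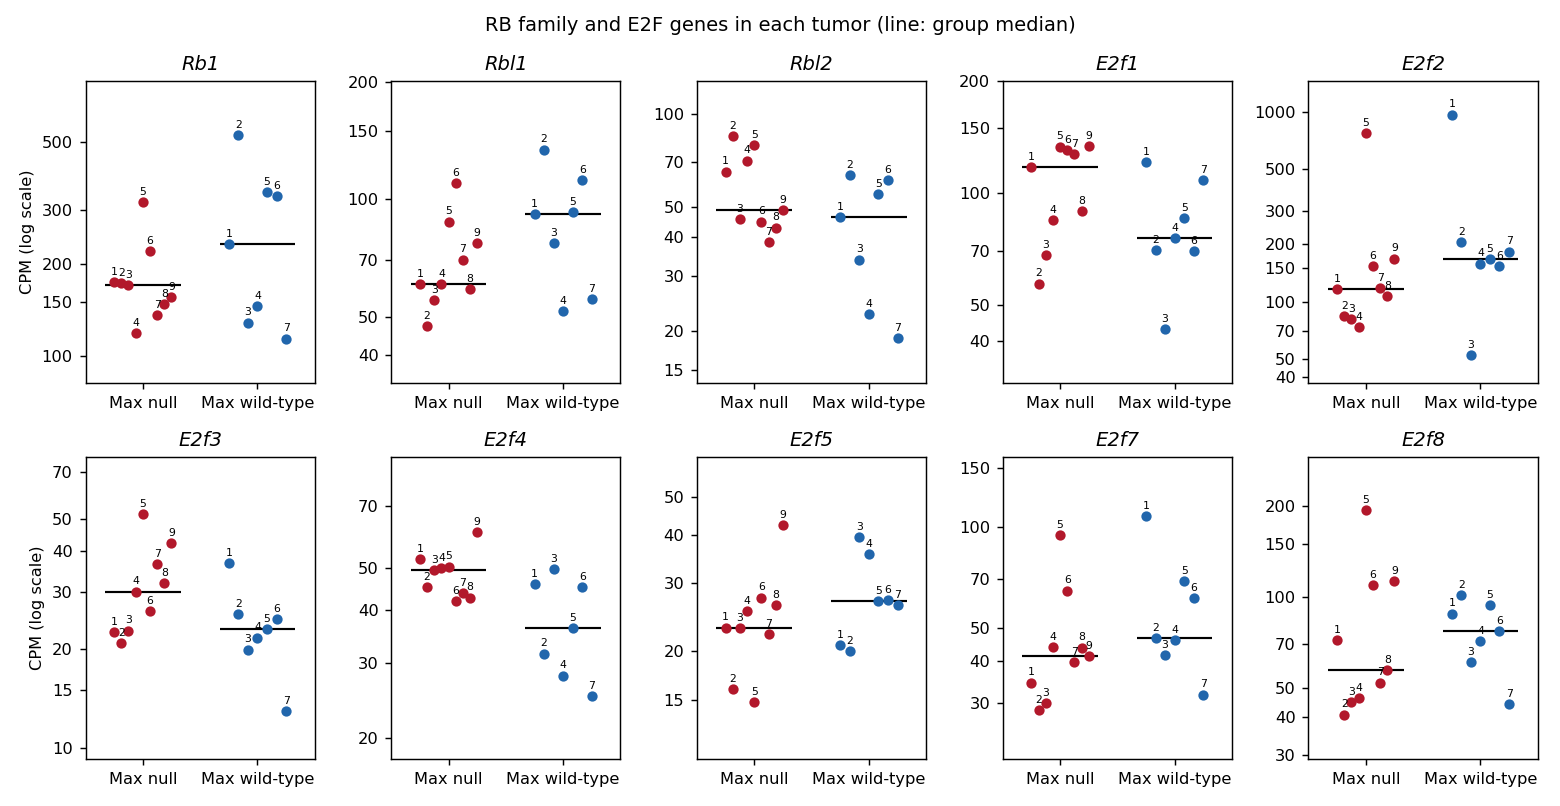
CPM (log axis, a scale of its own in each panel) of the 10 genes in each tumor, Max null at left and Max wild-type at right. Each point is a tumor with its number and the line is the group median. The groups overlap in every panel, and null tumor 5 and wild-type tumor 1 stand apart for E2f2.

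Among the pocket proteins, Rb1 and Rbl1 had lower medians in null tumors and Rbl2 a slightly higher one. Rb1 was lowest at 119, had a median of 170.5 and was highest at 318 CPM in null tumors, against 114, 232 and 529.8 CPM in wild-type tumors. In 8 of 9 null tumors Rb1 lay below the wild-type median, yet wild-type tumors 3, 4 and 7 were as low as the null ones. The log2 difference was -0.54 ± 0.30 (SE), with a 95% interval of -1.17 to 0.08 and an adjusted p of 0.212 in edgeR. About 8.11% of the exon bases of Rb1 overlap Rcbtb2 on the other strand in GENCODE M21, and the strand setting of the counting is not given in the sources used here. Rb1 counts in these tumors therefore measure RNA from the locus, and not full-length RB1.

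Rbl1, which encodes p107 and is itself a classic E2F target, had a minimum of 47.3, a median of 60.7 and a maximum of 109.9 CPM in null tumors, against 51.6, 91.5 and 134 CPM in wild-type tumors. It lay below the wild-type median in 8 of 9 null tumors. Its log2 difference was -0.33 ± 0.21 (SE), with an interval of -0.78 to 0.11 and an adjusted p of 0.287 in edgeR. Rbl2, which encodes p130, the pocket protein of resting cells, had a minimum of 38.5, a median of 49.0 and a maximum of 84.9 CPM in null tumors, against 19.0, 46.4 and 63.3 CPM in wild-type tumors. In null tumors 1, 2, 4 and 5 it was above every wild-type tumor, and the 2 lowest values were in wild-type tumors 4 and 7, which had the highest multiply aligned shares. The log2 difference was 0.43 ± 0.26 (SE), with an interval of -0.12 to 0.97 and an adjusted p of 0.266 in edgeR. It turned to -0.34 (adjusted p = 0.652) when the multiply aligned share entered the fit. In GENCODE M21, 9.17% of the exon bases of Rbl2 overlap Aktip on the other strand.

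Since Rbl1 and Rbl2 leaned in opposite directions, the ratio of the 2 counts was taken in each tumor, a measure chosen after their values were seen and given as a description with no test. Rbl1 over Rbl2 had a mean of 1.32 ± 0.57 (SD, n = 9) in null tumors, against 2.16 ± 0.40 (SD, n = 7) in wild-type tumors. It was 0.93, 0.56, 1.21, 0.86, 1.11, 2.45, 1.82, 1.37 and 1.57 in null tumors 1 to 9, and 1.97, 2.12, 2.28, 2.28, 1.69, 1.84 and 2.91 in wild-type tumors 1 to 7. In 7 of 9 null tumors the ratio was below every wild-type value, and null tumors 6 and 7 were the exceptions. How often other gene pairs lie so far apart was not computed. The highest ratio was in wild-type tumor 7, which had the highest multiply aligned share. With that share in the fit, the log2 differences were -0.63 for Rbl1 and -0.34 for Rbl2, so the 2 genes no longer leaned in opposite directions. The part of the share in the ratio was not tested. Null tumors 1, 2 and 4 had fewer Rbl1 than Rbl2 reads, and no wild-type tumor did. These are read ratios of 2 genes of different length, so they compare tumors and not the abundance of the 2 messages. Of 3 ratios computed in this way it was the one in which any null tumor lay below every wild-type tumor. E2f1 over E2f4 was 2.17 ± 0.65 in null tumors, against 2.38 ± 1.08 in wild-type tumors, and E2f8 over E2f7 was 1.69 ± 0.52 in null tumors, against 1.43 ± 0.40 in wild-type tumors (SD), with 0 null tumors below every wild-type one in each.

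**Figure D2:**
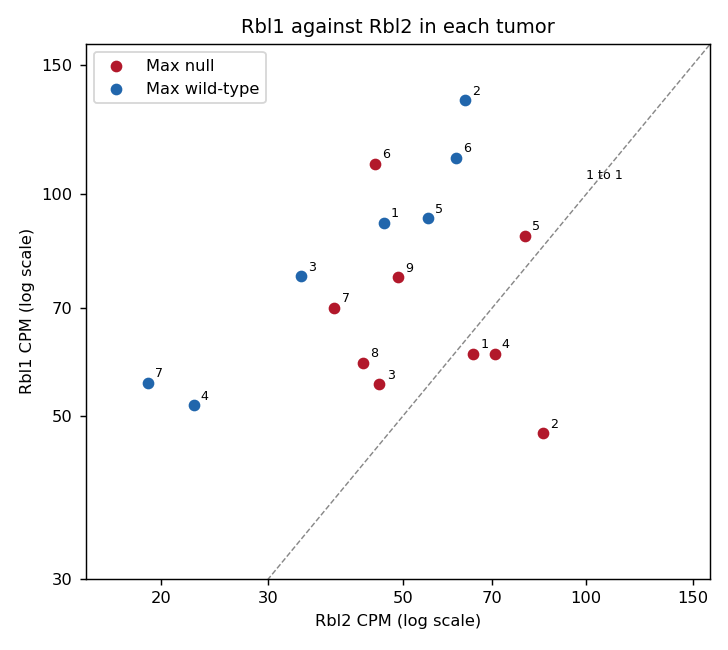
Rbl1 against Rbl2, both in CPM on log axes, with a point per tumor, its number and a dashed line at equal CPM. Null tumors 1, 2 and 4 lie below the line and all 7 wild-type tumors lie above it.

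Of the activators, E2f1 and E2f3 had higher medians and E2f2 a lower one in null tumors. E2f1, the activator that also drives apoptosis genes, had a minimum of 57.0, a median of 118 and a maximum of 134 CPM in null tumors, against 43.0, 75.5 and 121 CPM in wild-type tumors. Null tumors 5, 6, 7 and 9 were above every wild-type tumor, while null tumors 2 and 3 were below the wild-type median. Its log2 difference was 0.35 ± 0.22 (SE), with an interval of -0.12 to 0.82 and an adjusted p of 0.287 in edgeR. E2f3, another activator of genes for S phase, had a minimum of 20.9, a median of 30.03 and a maximum of 51.8 CPM in null tumors, against 12.9, 23.1 and 36.8 CPM in wild-type tumors. It was highest in null tumor 5 and in wild-type tumor 1, the same tumors as for E2f2. The log2 difference was 0.43 ± 0.23 (SE), with an interval of -0.05 to 0.91 and an adjusted p of 0.203 in edgeR.

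E2f2 varied more than any other gene of the family. It had a minimum of 73.2, a median of 116 and a maximum of 771 CPM in null tumors, against 52.1, 168 and 965 CPM in wild-type tumors. The top value was 10.5 times the lowest in null tumors, against 18.5 times in wild-type tumors. For the other 9 genes this quotient was between 1.45 and 4.75 in the null group, against between 1.97 and 4.66 in the wild-type group. Null tumor 5 and wild-type tumor 1 carried the high values, and the next values were 168 CPM in null tumors, against 206 CPM in wild-type tumors. The log2 difference was -0.54 ± 0.57 (SE), with an interval of -1.74 to 0.66 and an adjusted p of 0.542 in edgeR. Without null tumor 5 the value was -1.26 (adjusted p = 0.0564). Leaving out wild-type tumor 1 gave 0.28, and leaving out both gave -0.45 (adjusted p = 0.22).

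Of the repressors that need a pocket protein, E2f4 had a higher median and E2f5 a lower one in null tumors. It had a minimum of 41.9, a median of 49.5 and a maximum of 60.7 CPM in null tumors, against 25.1, 36.2 and 49.7 CPM in wild-type tumors. All 9 null tumors lay above the wild-type median and 4 lay above every wild-type tumor, while wild-type tumors 1, 3 and 6 lay among the null values. Its coefficient of variation was 12.3% in null tumors, the lowest of the 10 genes there, against 25.8% in wild-type tumors, where that of E2f5 was 25.6%. The log2 difference was 0.37 ± 0.16 (SE), with an interval of 0.04 to 0.71, an unadjusted p of 0.0300 and an adjusted p of 0.110 in edgeR. The lowest 3 wild-type values were in tumors 2, 4 and 7. Without these 3 tumors the difference was 0.13 (adjusted p = 0.632), and with the share of multiply aligned reads in the fit it was -0.0056 (adjusted p = 0.993).

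E2f5 had a minimum of 14.8, a median of 23.0 and a maximum of 42.4 CPM in null tumors, against 20, 26.9 and 39.4 CPM in wild-type tumors. It lay below the wild-type median in 7 of 9 null tumors, yet the highest value of all was in null tumor 9. Its log2 difference was -0.19 ± 0.21 (SE), with an interval of -0.64 to 0.26 and an adjusted p of 0.565 in edgeR. E2f5 was lowest in null tumor 5 and in wild-type tumor 2, in which several other genes of the family were highest.

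The atypical E2Fs, which E2F1 is known to induce and which then repress E2F targets, matched the activators in some tumors and not in others. E2f7 was highest in null tumor 5 and wild-type tumor 1, as were E2f2 and E2f3. E2f8 was highest in null tumor 5 and in wild-type tumor 2, where E2f1 was at -0.16 log2 units from its group mean. In wild-type tumor 7 E2f7 and E2f8 were the lowest of their group, while E2f1 was 0.47 above its group mean. E2f7 had a minimum of 28.6, a median of 41.4 and a maximum of 94.5 CPM in null tumors, against 31.7, 46.8 and 107.8 CPM in wild-type tumors. Its log2 difference was -0.31 ± 0.27 (SE), with an interval of -0.88 to 0.27 and an adjusted p of 0.459 in edgeR. E2f8 had a minimum of 40.8, a median of 57.5 and a maximum of 194 CPM in null tumors, against 44.4, 76.9 and 101 CPM in wild-type tumors. Although 6 of 9 null tumors lay below the wild-type median of E2f8, null tumors 5, 6 and 9 lay above every wild-type tumor. The log2 difference was 0.08 ± 0.31 (SE), with an interval of -0.57 to 0.72 and an adjusted p of 0.886 in edgeR. It was -0.20 without null tumor 5.

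The intervals give the range of sizes in the fit with no covariate, and they hold for that fit only. With the multiply aligned share in the fit, Rbl2 at -0.34 and E2f4 at -0.0056 lay outside these intervals. The intervals of that second fit are not given here, and it can hardly tell the share from Max status. The upper bounds of Rb1 and Rbl1 were 0.08 and 0.11 on the log2 scale, and the lower bounds of E2f3, E2f1 and Rbl2 were -0.05, -0.12 and -0.12. The interval of E2f2, from -1.74 to 0.66, was the widest of the 10, and that of E2f4 was the narrowest. A p that misses the threshold does not show that the groups have the same level of any of these genes.

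**Figure D3:**
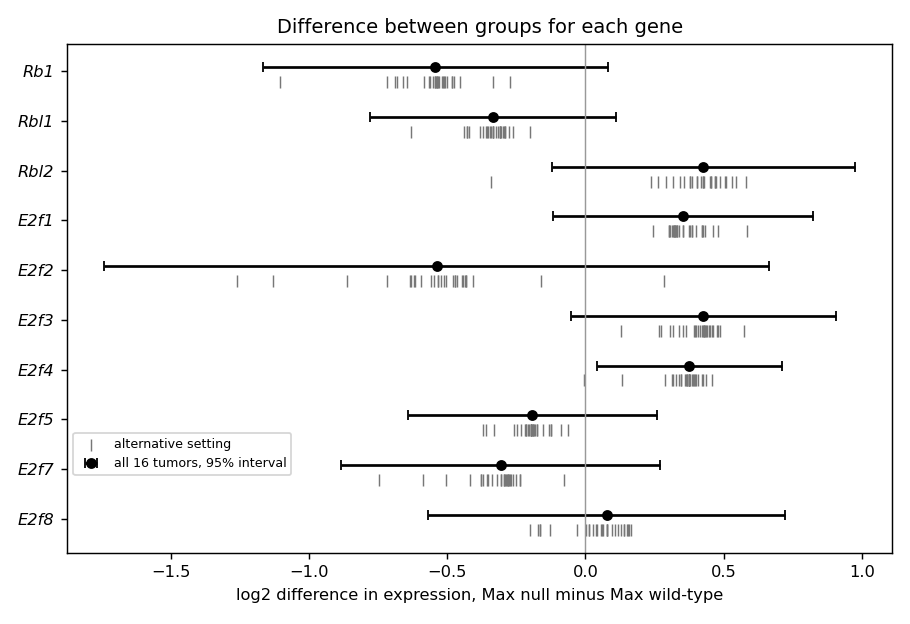
Log2 difference of each gene, Max null minus Max wild-type, with its 95% interval (black, all 16 tumors) and the values in the 28 alternative settings (gray ticks). E2f4 has the interval that lies above 0, and the E2f2 ticks run between -1.26 and 0.28.

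Levels of different genes were set side by side per kilobase of exon, with exon lengths from GENCODE M21, since the annotation used for counting is not given in the sources used here. In null tumors E2f2 averaged 38.0 ± 45.4, E2f1 33.2 ± 9.57 and Rb1 29.8 ± 9.85 CPM per kb (SD, n = 9). E2f4 followed at 19.8 ± 2.43, E2f8 at 14.9 ± 9.22, E2f5 at 13.7 ± 4.48 and Rbl1 at 11.6 ± 3.23 CPM per kb in null tumors. The lowest in null tumors were Rbl2 at 7.66 ± 2.29, E2f3 at 5.84 ± 1.90 and E2f7 at 5.19 ± 2.31 CPM per kb. In wild-type tumors E2f2 averaged 55.2 ± 63.6, Rb1 43.4 ± 25.2 and E2f1 26.0 ± 8.30 CPM per kb (SD, n = 7). E2f5 at 15.7 ± 4.03, E2f4 at 15.2 ± 3.93, Rbl1 at 14.7 ± 4.93 and E2f8 at 14.1 ± 3.65 CPM per kb came next in wild-type tumors, and E2f7 at 6.41 ± 2.81, Rbl2 at 5.69 ± 2.39 and E2f3 at 4.34 ± 1.32 CPM per kb were lowest.

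Most neighbours in this order had means closer than the larger SD between tumors, a measure that ignores that both genes came from the same tumors. In null tumors the mean of Rb1 exceeded that of E2f4 by 1.02 times the larger SD and that of Rbl1 exceeded Rbl2 by 1.23 times. In wild-type tumors E2f1 exceeded E2f5 by 1.24 times the larger SD and E2f8 exceeded E2f7 by 2.11 times. All other neighbours were closer than 1 SD. Within tumors some of these still kept their order in most tumors, and others did not. Rb1 lay above E2f1 in 6 of 7 wild-type tumors and E2f4 above E2f8 in 7 of 9 null tumors. E2f8 lay above E2f5 in 3 of 9 null tumors. E2f2 led both orders through single tumors, since it was above E2f1 in 1 of 9 null tumors and above Rb1 in 3 of 7 wild-type tumors. The activators E2f1 and E2f3 were far apart in level, at 33.2 and 5.84 CPM per kb in null tumors, against 26.0 and 4.34 CPM per kb in wild-type tumors.

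Some pairs of these genes varied together among tumors of the same label. Log2 CPM was correlated after each group's mean was subtracted, over 16 tumors, as a description with no test. All values of a tumor share its library, depth and makeup. Of the 45 pairs, 17 (37.8%) had a Pearson's r over 0.5 and 10 (22.2%) were below 0, with a median of 0.38. Over all pairs of 13301 genes of at least 1 CPM, 7.47% were over 0.5 and 50.1% below 0, with a median of -0.00085. The atypical E2f7 and the activator E2f3 had the highest value, 0.79, and E2f7 also varied with E2f2 at 0.77 and with E2f8 at 0.76. Among the pocket genes Rb1 varied with Rbl1 at 0.77 and with Rbl2 at 0.74, and Rbl1 with Rbl2 at 0.50. They were not apart from the atypical E2Fs, as Rbl1 was at 0.71 with E2f8 and 0.62 with E2f7, and Rb1 at 0.66 with E2f8. E2f1 varied with E2f2 at 0.73 and stood near 0.14 with Rb1 and at -0.20 with Rbl2.

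E2f4 and E2f5 had few high values. No pair with E2f4 was over 0.5, and E2f4 with E2f1 was at -0.16. E2f5 was at -0.52 with Rb1, at -0.52 with Rbl2 and at -0.49 with E2f2. Single tumors carry much of these values. Null tumor 5 was the highest of its group for Rb1, E2f2, E2f3, E2f7 and E2f8 and the lowest for E2f5, and null tumor 2 was the lowest for Rbl1, E2f1, E2f3, E2f7 and E2f8 and the highest for Rbl2. Wild-type tumor 1 was the highest of its group for E2f1, E2f2, E2f3 and E2f7, and wild-type tumor 2 for Rb1, Rbl1, Rbl2 and E2f8. Wild-type tumor 7, with the highest multiply aligned share, was the lowest for Rb1, Rbl2, E2f3, E2f4, E2f7 and E2f8. Log2 CPM minus each gene's mean over the 16 tumors was also correlated with log2 exon length across genes. Wild-type tumor 7 had the lowest value of the 16 tumors, -0.45. This value averaged 0.12 ± 0.09 (SD, n = 9) in null tumors, against -0.12 ± 0.21 (SD, n = 7) in wild-type tumors. The part of this length trend in the differences between the groups was not tested.

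**Figure D4:**
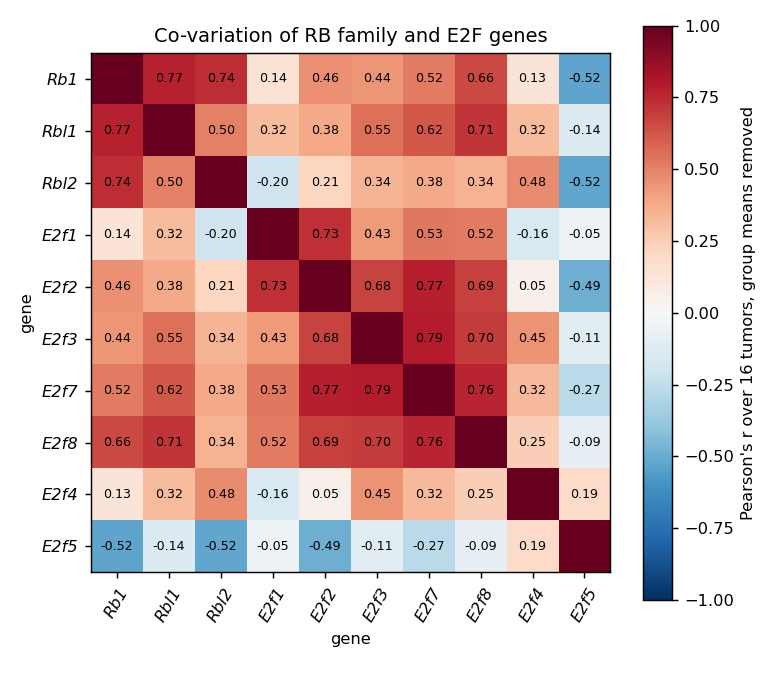
Pearson's r of log2 CPM between each pair of the 10 genes after subtracting group means, over 16 tumors (red above 0, blue below). E2f2, E2f3, E2f7 and E2f8 form a block between 0.68 and 0.79, and the E2f5 row is mostly blue.

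The genes that vary with cell division were used to place the family. The mean log2 CPM of 40 E2F targets of the G1/S transition was 6.35 ± 0.39 in null tumors, against 6.66 ± 0.26 in wild-type tumors (SD). With this mean, group means removed, E2f1 had a Pearson's r of 0.84, E2f2 0.83 and E2f8 0.76 over 16 tumors. E2f7 was at 0.60 and E2f3 at 0.58. Rbl1 was at 0.43 and Rb1 at 0.42, while E2f4 was at -0.01, Rbl2 at 0.09 and E2f5 at -0.22. With the mean of 30 targets of DREAM in G2 and mitosis, E2f8 was at 0.83, E2f1 at 0.78 and E2f2 at 0.76. E2f7 and E2f3 were at 0.57 each, Rbl1 at 0.53 and Rb1 at 0.49. Rbl2 was at 0.11, E2f4 at -0.10 and E2f5 at -0.12. Values for genes outside the family are not given here. Neither list holds any of the 10 genes.

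Over all genes above 1 CPM, the 3 whose pattern was most like each gene were named by Pearson's r over the same 16 tumors. E2f8 was most like Top2a, the DNA topoisomerase of dividing cells, at 0.92, and then Sgol2 and Tmem194 at 0.91 each. E2f1 was most like Phc1 at 0.86, Ebf1 at 0.85 and the cyclin gene Ccnf at 0.84. E2f3 was most like Mapk6 at 0.90, Dip2c at 0.89 and Pogk at 0.88, and E2f7 was most like Fnbp1l at 0.94, Rgs5 at 0.93 and Lmnb1 at 0.90. For Rb1 the nearest were Nfatc2ip at 0.91, Parg at 0.88 and Cdkn1b, the p27 inhibitor of cyclin-dependent kinases, at 0.87. For Rbl1 they were Zc3h14 at 0.84, Cep152 at 0.83 and Zfp346 at 0.83, and for Rbl2 they were Zyg11b at 0.91, Chd9 at 0.90 and Terf2ip at 0.89. E2f4 was most like Fip1l1 at 0.88, Nacc1 at 0.86 and Ano8 at 0.85. E2f5 was most like B3gnt2 at 0.87, Prok2 at 0.86 and Bcas1 at 0.85. E2f2 was most like Hnrnpr at 0.93, Vcam1 at 0.93 and Maz at 0.92.

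Some of these neighbours in pattern were also neighbours on a chromosome. Rbl2 and E2f4 lie on chromosome 8, as do Chd9, Terf2ip, Nacc1 and Ano8. Of the 100 genes most like Rbl2, 26 were on its own chromosome, and of those most like E2f4, 21 were. Over all genes the median was 9%, 7.45% of genes had 26 or more and 12.6% had 21 or more, so values of this size are not rare in these tumors. E2f8 was at the other end with 3 of 100 on chromosome 7.

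E2f2 and Hnrnpr lie 4 genes apart on chromosome 4, so the 50 nearest genes of at least 1 CPM were examined, a step chosen after the values were seen and given with no test. In null tumor 5, 16 of the 50 were more than 1 log2 unit above their group mean, and in wild-type tumor 1, 17 were. In both tumors at once 10 were, or 20%, against 3.62% of 14704 genes and between 0% and 10% for the neighbourhoods of the other 9 genes. The 10 were Srrm1, Srsf10, Rpl11, Id3, Zfp46, Hnrnpr, Luzp1, Kdm1a, Ephb2 and Epha8. Epha8, an ephrin receptor gene, was 3.60 log2 units above its group mean in null tumor 5 and 4.55 in wild-type tumor 1, and E2f2 itself was 2.52 and 2.37 above. The median over the 50 neighbours was 0.61 in null tumor 5 and 0.62 in wild-type tumor 1. In wild-type tumor 7 it was 0.44, where E2f2 was at -0.02, and in the other 13 tumors it was between -0.47 and 0.10.

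**Figure D5:**
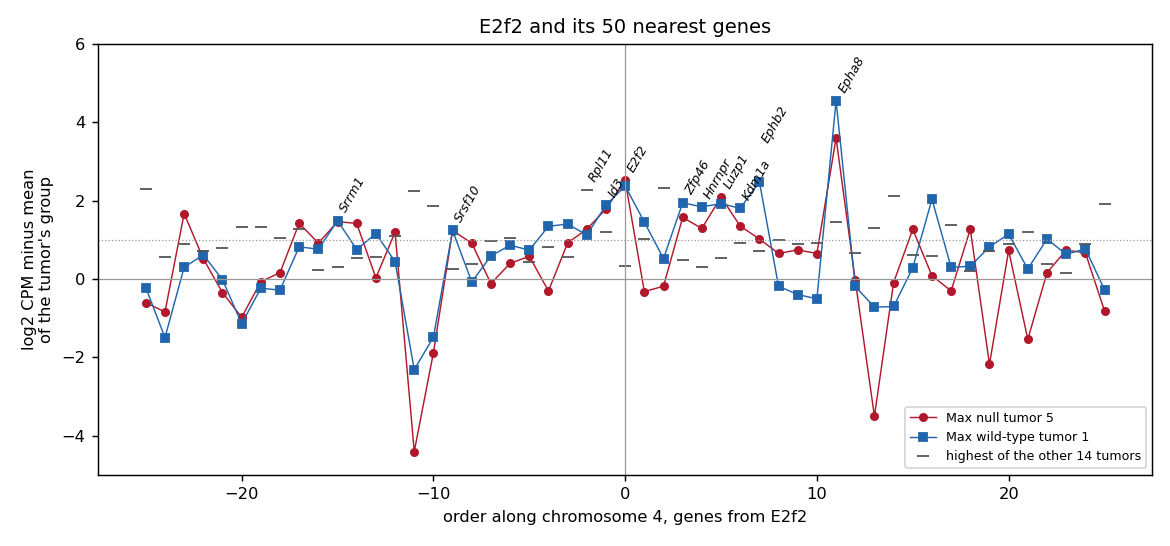
Log2 CPM minus the mean of the tumor's group for E2f2 (position 0) and its 50 nearest genes in chromosome order, in null tumor 5 (red) and wild-type tumor 1 (blue); dashes mark the highest of the other 14 tumors. The 10 genes named are above 1 in both tumors, and E2f2 is at 2.52 and 2.37.

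The other genes of the pathway were counted in 9 lists of 118 genes by edgeR, as for the 10 genes above. In edgeR 0 of the 118 rose and 10 fell, in DESeq2 3 rose and 19 fell, and in limma-voom 1 rose and 16 fell. Over all 14825 genes, 1097 rose and 1281 fell in edgeR, 1543 and 1792 in DESeq2, and 1294 and 1146 in limma-voom. Those that rose in DESeq2 included Ccnd1 at 1.02 (adjusted p = 0.0328) and Pola1 at 0.78 (adjusted p = 0.0331), named after their values were seen. Both DP partners, which E2F1 to E2F5 need to bind DNA, missed the test, with log2 differences of 0.04 ± 0.16 (SE) for Tfdp1 and 0.37 ± 0.20 for Tfdp2. Among the 7 genes of the MuvB core and its partners MYBL2 and FOXM1, 4 fell, 0 rose and 3 did not pass in edgeR, with a median of -0.52. Rbbp4, a histone chaperone of the MuvB core and of several other complexes, averaged 375 ± 82.3 CPM in null tumors, against 698 ± 351 CPM in wild-type tumors (SD). Its log2 difference was -0.90 ± 0.23 (SE; adjusted p = 0.0192 in edgeR). The MuvB subunits Lin37, Lin9 and Lin52 fell by 0.70 ± 0.21, 0.58 ± 0.18 and 0.52 ± 0.17 on the log2 scale (SE), with adjusted p of 0.0322, 0.0388 and 0.0467 in edgeR. The background is again 8.64% of all genes lower.

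Among 8 G1 cyclins and kinases, which phosphorylate the pocket proteins, 2 fell, 0 rose and 6 did not pass in edgeR, with a median of -0.31; in DESeq2 2 fell and 1 rose. Cdk2, the partner of cyclin E, averaged 60.2 ± 16.8 CPM in null tumors, against 94.9 ± 12.3 CPM in wild-type tumors (SD), a log2 difference of -0.66 ± 0.16 (SE; adjusted p = 0.0162 in edgeR). Cdk4, the partner of the D cyclins, averaged 214 ± 40.1 CPM in null tumors, against 363 ± 128 CPM in wild-type tumors (SD), a log2 difference of -0.76 ± 0.20 (SE; adjusted p = 0.0185 in edgeR). None of 7 CDK inhibitors passed in edgeR or DESeq2, with a median of -0.53 in edgeR, and 1 fell in limma-voom, Cdkn1c, at -2.89 (adjusted p = 0.0020). Cdkn2a, the locus of p16 and ARF, was at -0.53 ± 0.29 and Cdkn1b at -0.06 ± 0.20 (SE). None of 8 corepressors of pocket proteins passed in edgeR or DESeq2, with a median of -0.32 in edgeR, and 1 fell in limma-voom, Hdac2, at -0.54 (adjusted p = 0.0320). In edgeR Rbbp7 was at -0.05 ± 0.21 and the chromatin remodeler Smarca4 at 0.20 ± 0.12 (SE).

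Of the 40 G1/S targets 2 fell, 0 rose and 38 did not pass in edgeR, with a median of -0.27, while 8 fell and 1 rose in DESeq2 and 7 fell in limma-voom. Rpa2, a subunit of the protein that coats single-stranded DNA, averaged 71.9 ± 12.4 CPM in null tumors, against 146 ± 51.9 CPM in wild-type tumors (SD), a log2 difference of -1.03 ± 0.20 (SE; adjusted p = 0.00531 in edgeR). Of the 30 G2 and mitosis targets 1 fell, 0 rose and 29 did not pass in edgeR, with a median of -0.26, while 3 fell in DESeq2 and 1 in limma-voom. The one in edgeR was Cdc25c, the phosphatase that activates CDK1, which fell by 1.19 ± 0.36 on the log2 scale (SE; adjusted p = 0.0345 in edgeR). None of 8 apoptosis genes that E2F1 drives passed in edgeR, with a median of -0.08, while 1 rose in DESeq2 and 1 in limma-voom. Ppp1r13b was at 0.26 ± 0.19 in edgeR (SE). Of 8 regulators of the RB proteins 1 fell in edgeR, Ppp1cc, a catalytic subunit of the phosphatase PP1 that dephosphorylates RB1, by 0.58 ± 0.17 on the log2 scale (SE; adjusted p = 0.0326 in edgeR).

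The 10 calls did not hold in every setting. Without wild-type tumors 2, 4 and 7 none of the 10 passed (1.68% of all genes did), with differences between -0.29 for Lin37 and -0.77 for Rpa2, and Cdc25c was at -0.76. The groups did not overlap in the share of multiply aligned reads, so a fit with it can hardly tell the share from Max status. With this share as a covariate none of the 10 passed either (0.0675% of all genes did). Rbbp4 was then at -0.33, Cdk4 at -0.29, Lin37 at -0.16, Rpa2 at -0.60, Cdc25c at -0.75 and Ppp1cc at -0.23, while Cdk2 was at -0.74, Lin9 at -0.66 and Lin52 at -0.70. Rbbp4, Cdk2, Cdk4 and Rpa2 passed in all 16 fits that left out 1 tumor, Lin37 passed in 9, Cdc25c in 8, Lin9 and Ppp1cc in 6 each and Lin52 in 3. Without null tumor 5, 29 genes of these lists passed in place of 10, 10 of them G1/S targets and 6 of them targets in G2 and mitosis. Over all genes, 2778 of 14740 passed in that fit, in place of 2378 of 14825. In bulk tumors fewer cells of a type and less RNA per cell cannot be told apart. Of the 5 macrophage markers 2 fell, 0 rose and 2 of the other 3 had differences above 0 in edgeR, and the 5 summed to 255 to 855 CPM in null tumors, against 193 to 673 CPM in wild-type tumors. Of 5 alveolar type 2 markers 1 rose, and the 5 summed to 574 to 2546 CPM in null tumors, against 129 to 1836 CPM in wild-type tumors. Of 4 alveolar type 1 markers 1 fell, and the 4 summed to 93.9 to 464 CPM in null tumors, against 81.0 to 231 CPM in wild-type tumors. No marker of the other 9 cell types was called. The part of such cells in the values above was not tested.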

How the data were processed

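RNA from 9 Max null and 7 Max wild-type lung tumors was extracted with TRIZOL and made into libraries with a NEB Ultra RNA kit, per the labels' protocols. The authors deposited raw read counts per gene symbol, in 1 file per tumor. Per the submitters' processing notes, HTSeq 0.6.1, TopHat2 2.0.12, TopHat and bcl2fastq 1.8.4 were used with the build mm9, with no role given. Lines for reads outside genes, 29.2% to 45.6% of reads, stayed out of library sizes and tests. The sources used here give neither the annotation nor the strand setting.

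From these counts edgeR 4.0.16 (R 4.3.3) gave TMM-scaled CPM and a quasi-likelihood test over 16 tumors with no covariate, after filterByExpr, with a threshold of 0.05 on the adjusted p. Log2 CPM used a prior count of 2. Reads in genes were 8.66 to 15.11 M, so counting error was small against the spread between tumors. No libraries agreed within sampling noise, with a smallest chi-square of 34.5 per degree of freedom. Since nothing says that the tumors came from separate mice, p-values reflect only the spread between samples, which may be technical. Sequences came from a RefSeq table of GRCm38.p6, and no coordinates were converted from mm9. The genes and lists were chosen with earlier results of these data known. Named were the 10 genes, up to 4 called genes per list by p or, with none called, 2 by mean CPM, the 3 genes most like each, and Max and Trp53. The alternatives were other scalings (RLE, upper-quartile), DESeq2 1.42.0, limma-voom (limma 3.58.1), no filter, at least 5 CPM in 7 tumors, tumor number as a block, 2 covariates, and tumors left out. Values of a few listed genes are left out of the text.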

Additional observations from a re-analysis of the deposited data

Results flagged for a closer look

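Of the CPM values of the 10 genes, 4 stood apart from the rest of their group by Dixon's gap test. It was run on 20 groups (10 genes in the null and in the wild-type tumors). The test flags about 1 in 20 groups by chance only where values within a group are normally distributed, which was not checked. It was not run on log2 CPM, where each of the 4 gaps is a smaller part of its group's range. The flags are therefore given for the CPM scale, and whether any of them holds on log2 CPM was not tested. E2f2 was 771 CPM in null tumor 5, where the next highest null tumor had 168 CPM. It was also 965 CPM in wild-type tumor 1, where the next highest wild-type tumor had 206 CPM. E2f8 was 194 CPM in null tumor 5, against 113 CPM in the next highest null tumor. E2f5 was 42.4 CPM in null tumor 9, against 27.5 CPM in the next highest null tumor. The gap took 0.86, 0.83, 0.53 and 0.54 of the group's range for these 4 values, in the same order.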

How the results depend on the processing

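None of the 10 genes passed in any of 28 alternatives; 271 of 280 values kept their direction and the smallest adjusted p was 0.0547 (E2f4 without wild-type tumor 3). The multiply aligned share as covariate gave -0.34 for Rbl2, -0.0056 for E2f4, -0.17 for E2f8, -0.26 for Tfdp1, 0.27 for Rbbp7, -0.038 for Smarca4, 0.37 for Cdkn2a and -0.20 for Ppp1r13b. E2f8 was -0.16 in voom and -0.16 without null tumor 5 and wild-type tumor 1, and Tfdp1 was -0.056 in voom. Without wild-type tumors 2, 4 and 7 Tfdp1 was -0.19 and Rbbp7 0.21. Leaving out 1 tumor gave -1.26 to 0.28 for E2f2, -0.20 to 0.16 for E2f8, -0.042 to 0.13 for Tfdp1, -0.12 to 0.064 for Rbbp7 and -0.19 to 0.10 for Cdkn1b.

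Calls over all genes (2378) and over the pathway lists (10) moved more. They were 10 and 0 with the multiply aligned share as covariate, 256 and 0 without wild-type tumors 2, 4 and 7, and 1471 to 3033 and 5 to 29 when 1 tumor was left out (1471 without wild-type tumor 4, 1555 without wild-type tumor 7). List calls were 22 in DESeq2 (3 higher), 17 in voom (1 higher), 6 with no filter and 29 without null tumor 5 and wild-type tumor 1, an alternative chosen after seeing the data. In the same order, calls over all genes were 3335 of 14825, 2440 of 14825, 2079 of 21009 and 3386 of 14816. The cause was not tested.

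Tumor numbers are shared by the groups. Same-numbered tumors correlated between -0.17 and 0.24, with no test, and only number 3 matched its own number best. These correlations cannot show whether the numbers pair the tumors. With the replicate block on tumors 1 to 7, 278 genes and 0 list genes were called, E2f8 was -0.13 and Cdkn1b 0.015; without the block on the same tumors 1450 and 6 were called. The block called none of the 10 genes (smallest adjusted p 0.169, Rbl2). Depth did not limit these genes, each with at least 96 reads per tumor.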
